A study of Rattus norvegicus with 6 samples.

Results

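Transcripts of 10 voltage-gated calcium channel subunit genes were compared between pancreatic islets of 12-month-old and 3-month-old rats. The genes were *Cacna1a*, *Cacna1b*, *Cacna1c*, *Cacna1e*, *Cacna1g*, *Cacna1h*, *Cacnb1*, *Cacnb2*, *Cacnb3* and *Cacna2d1*. Probes were assigned to them by RefSeq accession, and all 10 genes had a probe, 12 probes in all, among the 13904 genes matched on the array. *Cacna2d1* had 3 probes and every other member had 1. The value of a gene was that of its brightest probe on average over the 6 arrays.

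The islets came from 3 male Wistar rats of each age and were freed from the pancreas by collagenase digestion, and no treatment, transgene or other genotype is given in the labels for either age. RNA of 3 samples from 3-month-old and 3 from 12-month-old animals was hybridised to 1-colour arrays, so that each age is represented by 3 arrays. The labels do not tie an array to an animal, and the p-values below measure the spread between these arrays. Whole islets contain several endocrine cell types as well as vessels and nerves, and the RNA was not divided by cell type. A change in the number of cells of a type therefore cannot be told apart from a change in the RNA of each cell.

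Voltage-gated calcium channels open when the cell membrane depolarises and let calcium into the cell. In beta cells, glucose metabolism closes ATP-sensitive potassium channels, the membrane depolarises, and the calcium that enters, largely through L-type channels, triggers the release of insulin granules. Each channel is built around a pore-forming alpha1 subunit, which sets its type. A cytoplasmic beta subunit and an extracellular alpha2delta subunit help to bring the pore to the membrane and tune its opening.

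The 3-month arrays were read in 1 scan and the 12-month arrays in another, and for every value below the effect of age and that of the scan cannot be told apart. The arrays also differed in background: negative control spots had a median signal of 30.2 ± 0.76 scanner units at 3 months and 90.5 ± 0.87 at 12 months (SD, n = 3). The share of probes that the scanner software marked as well above background was 75.6% ± 2.29 at 3 months and 61.2% ± 2.62 at 12 months (SD, n = 3). The islet label was borne out by its defining markers: *Ins1*, *Ins2* and *Iapp*, which encode the insulins and islet amyloid polypeptide, were well above background on all 6 arrays. Levels are given as quantile-normalised log2 signal, and differences as 12-month minus 3-month on the same log2 scale. Because probes differ in how brightly they bind, levels were compared between arrays and not between genes.

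Of the 10 members, 1 was called at an adjusted p under 0.05, *Cacna1c*, and it was higher at 12 months. The test took probes whose signal stood well above background on 3 or more of the 6 arrays, and 8 of the 10 members met this. *Cacna1a* and *Cacna1e* did not. Over all 17941 tested probes, 8.37% were called at the adjusted threshold in either direction and 5.32% were called higher, so that 1 call among 8 tested members is near the share over all probes. At the fold and p of the study, where a transcript had to differ more than 2-fold at an unadjusted p under 0.05 (in the study from a paired test, here from unpaired limma), *Cacna1c* was again the member called, beside 10.1% of all tested probes called higher. The median difference of the 8 tested members was 0.16, with 6 above and 2 below zero, and that of all tested probes was -0.17. These 8 are not all the members, since *Cacna1a* and *Cacna1e* were too dim to be tested. A dim gene can enter the test through the age at which it is brighter. The 8 tested members were each well above background on an array of both ages.

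**Figure D1:**
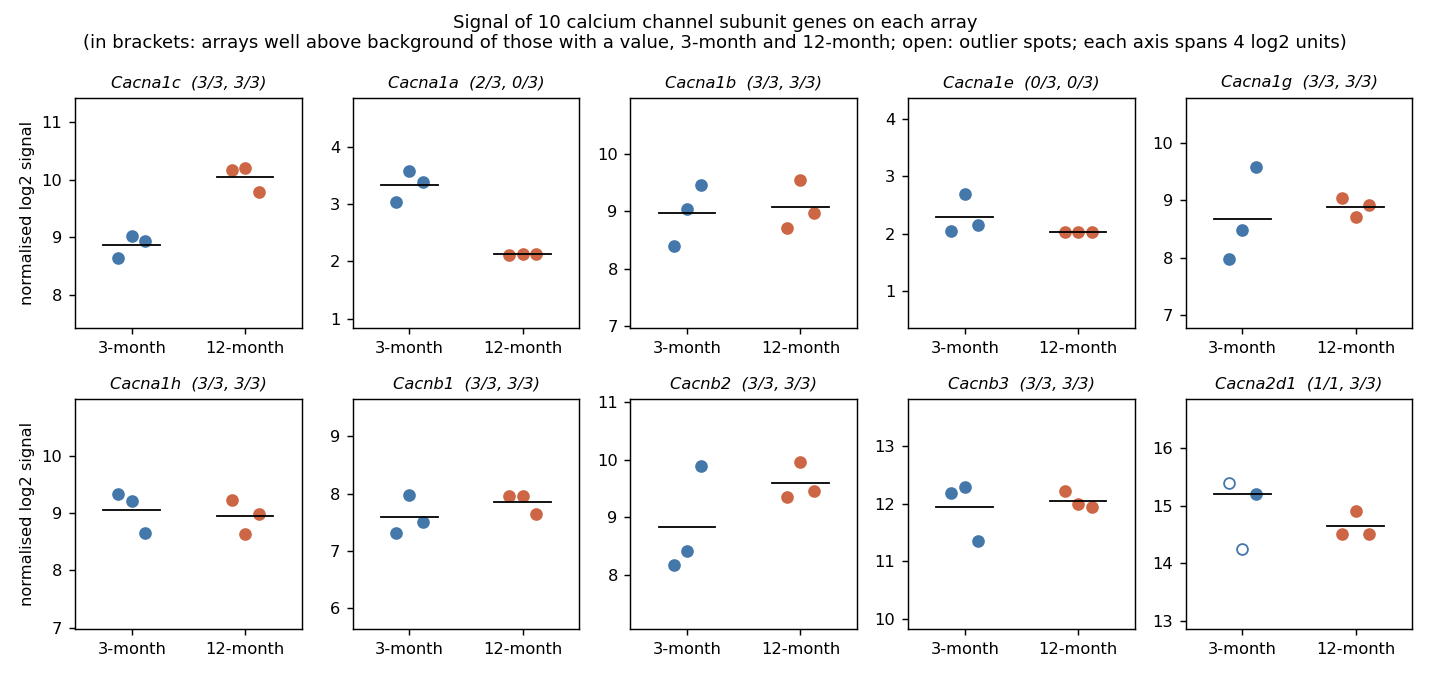
Normalised log2 signal (y axis, 4 log2 units in each panel) of the 10 subunit genes on the 3-month arrays (blue) and the 12-month arrays (orange), with a line at the mean of the filled points. The brackets give the arrays well above background among those with a value, first 3-month and then 12-month, and open points are spots marked as outliers. *Cacna1c* is the only well-measured member here whose 12-month points, from 9.78 to 10.21, all lie above its 3-month points, from 8.63 to 9.03.

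*Cacna1c* encodes the pore of the L-type channel Cav1.2, one of the main routes of calcium entry in rodent beta cells and also the L-type channel of heart and smooth muscle. Its log2 signal was 8.63, 9.03 and 8.93 on the 3-month arrays 1, 2 and 3. It was 10.17, 10.21 and 9.78 on the 12-month arrays in the same order. Every 12-month array was higher than every 3-month array, and the probe was well above background on all 6 arrays. Means were 8.86 ± 0.21 at 3 months and 10.05 ± 0.23 at 12 months (SD, n = 3), a difference of 1.19 (limma SE 0.25, 95% interval 0.60 to 1.78, adjusted p 0.0371) or 2.28-fold. Relative to the median of all tested probes the difference was 1.36, and it was 1.58 when arrays were aligned by their 75th percentile, a scaling under which the median of all probes was -0.40. An exact permutation test of 3 arrays against 3 can give no two-sided p below 0.1, which is the value for *Cacna1c*. Groups did not overlap, with 12 months higher, for *Cacna1c* and for none of the other 6 tested members with a value on all arrays, and for 16.5% of all probes with a value on all arrays.

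The direction of the *Cacna1c* difference held under all 17 alternative settings, with values from 0.95 to 1.36. Its call did not: the adjusted p ran from 0.0257 to 0.276 and was under 0.05 in 8 of the 17. With any 1 array left out the gene lost its call, with differences of 1.07 to 1.32 and adjusted p-values from 0.057 to 0.145 (limma). 

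**Figure D2:**
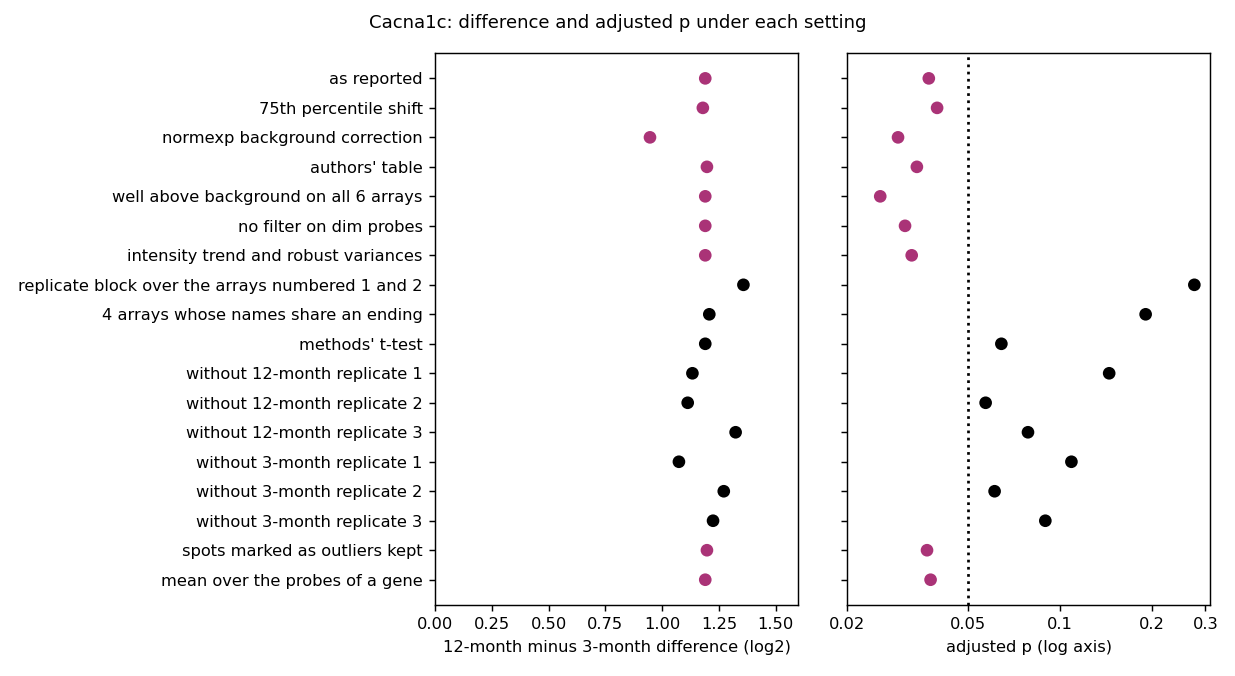
Difference of *Cacna1c* between the ages (left, log2) and its adjusted p (right, log axis, dotted line at 0.05) as reported and under each of the 17 alternative settings, in purple where the adjusted p is under 0.05. The differences stay between 0.95 and 1.36, while every fit that leaves out 1 array lies to the right of the line.

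The annotated start of *Cacna1c* is shown because it is the gene that was called, and that of *Cacnb3*, a beta subunit whose levels overlapped between the ages, beside it for contrast. Each window holds 300 bases around a RefSeq transcript start, most of them upstream, 5′ to 3′, on build GRCr8. The *Cacna1c* window is chr4:154051699-154051998 on the minus strand, and capitals mark the letters TGACG, the core of the cyclic AMP response element. The *Cacnb3* window is chr7:131666301-131666600 on the plus strand, and capitals mark the GC box GGGCGG or its complement, of which it holds 3 copies. Neither window holds the letters marked in the other.
Cacna1c: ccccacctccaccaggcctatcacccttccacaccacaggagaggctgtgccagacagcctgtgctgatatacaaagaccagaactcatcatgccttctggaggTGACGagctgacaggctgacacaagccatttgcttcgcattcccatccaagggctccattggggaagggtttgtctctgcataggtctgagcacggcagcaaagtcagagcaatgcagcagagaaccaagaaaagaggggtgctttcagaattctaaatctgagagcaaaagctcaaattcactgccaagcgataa
Cacnb3: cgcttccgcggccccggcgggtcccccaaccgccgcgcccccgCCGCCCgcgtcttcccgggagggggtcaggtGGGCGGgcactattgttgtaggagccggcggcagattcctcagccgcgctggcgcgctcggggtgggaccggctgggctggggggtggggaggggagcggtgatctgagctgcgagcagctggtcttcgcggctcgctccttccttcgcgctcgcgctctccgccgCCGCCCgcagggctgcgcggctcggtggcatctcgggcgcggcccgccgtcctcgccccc

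The window of *Cacna1c* held 51.7% G and C and 4 CG pairs, and that of *Cacnb3* held 77.7% and 44 pairs. Over all 33469 windows of the same length the median was 51.7% with 7 CG pairs, so that the *Cacna1c* window lay at the median base composition. The 7 members with a window had 10 windows in all, with a median of 72.5% G and C and 36.5 CG pairs. *Cacna1g*, *Cacna1h* and *Cacnb1* had no entry. The windows of *Cacna2d1* overlap, so that motifs were counted by gene. Searched on both strands, GGGCGG was present in a window of 5 of the 7 genes and in 33.1% of all windows, and TGACG in 4 of the 7 and in 21.2% of all. CCAAT was present in 3 of the 7, *Cacna1c* among them, and in 37.5% of all windows. TATAAA was present in 0 of the 7 and in 14.2% of all windows. The shares over all are by window, while a gene with several windows has more chances to hold a motif. Counted by window, GGGCGG was in 7 of the 10 member windows, TGACG in 4, CCAAT in 3 and TATAAA in 0. These matches describe letters in an annotated window and not binding, and the start used in islets was not measured.

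The other pore-forming members gave no call. *Cacna1b* encodes the N-type pore Cav2.2, known best from nerve terminals and present in some islet cells. Its log2 signal was 8.39, 9.03 and 9.46 on the 3-month arrays and 8.70, 9.54 and 8.96 on the 12-month arrays. The ages overlapped, and the difference was 0.11 (limma SE 0.37, 95% interval -0.77 to 0.98, adjusted p 0.854). The interval leaves out a 2-fold change in either direction, but not smaller ones.

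*Cacna1g* and *Cacna1h* encode the T-type pores Cav3.1 and Cav3.2, which open at more negative potentials than the L-type. *Cacna1g* was at 7.97, 8.49 and 9.58 on the 3-month arrays and at 9.04, 8.71 and 8.91 on the 12-month arrays. The 12-month values lay within the range of the 3-month values, of which array 3 was the highest. The difference of *Cacna1g* was 0.21 (limma SE 0.42, 95% interval -0.80 to 1.22, adjusted p 0.752). *Cacna1h* was at 9.33, 9.20 and 8.65 on the 3-month arrays and at 9.23, 8.63 and 8.98 on the 12-month arrays. Here, too, the ages overlapped, with a difference of -0.11 (limma SE 0.29, 95% interval -0.81 to 0.59, adjusted p 0.807).

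*Cacna1a* encodes the P/Q-type pore Cav2.1 and *Cacna1e* the R-type pore Cav2.3, both channels of nerve terminals that have also been recorded in islet cells. The *Cacna1a* probe read 3.03, 3.58 and 3.38 on the 3-month arrays and 2.11, 2.13 and 2.13 on the 12-month arrays. Its signal was well above background for the 3-month samples 2 and 3 and for no 12-month sample. The lowest signals well above background on the 12-month arrays averaged 4.80, above the 3-month mean of *Cacna1a* at 3.33, so that no fold can be given. When dim probes were tested as well, its difference was -1.20 with an adjusted p of 0.0285, a value that rests on 12-month signals at background. The *Cacna1e* probe reached a signal well above background on no array, with a mean of 2.29 ± 0.35 at 3 months and 2.03 ± 0.0046 at 12 months (SD, n = 3). Neither probe gave a measured level at 12 months.

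The beta subunits bind the pore from the inside of the cell. *Cacnb2*, which encodes beta2, had the largest difference among the 3 beta genes. Its log2 signal was 8.16, 8.42 and 9.90 on the 3-month arrays and 9.36, 9.95 and 9.46 on the 12-month arrays. All 12-month arrays were above the 3-month arrays 1 and 2, while 3-month array 3 lay inside the 12-month range. The difference of 0.77 (limma SE 0.48, 95% interval -0.39 to 1.92, adjusted p 0.303) did not pass the test. Without 3-month replicate 3 it was 1.30, with an unadjusted limma p of 0.00563 and an adjusted p of 0.0868, which is past the fold and p of the study. With any other array left out the *Cacnb2* difference lay between 0.43 and 0.88, with unadjusted limma p-values from 0.181 to 0.42.

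*Cacnb3*, which encodes beta3, was at 12.19, 12.29 and 11.36 on the 3-month arrays and at 12.22, 12.00 and 11.95 on the 12-month arrays. The 12-month values again lay within the 3-month range, and 3-month array 3 was the lowest of the 6. The difference was 0.11 (limma SE 0.31, 95% interval -0.64 to 0.86, adjusted p 0.821), and its sign turned to -0.076 with the 75th percentile alignment. *Cacnb1*, which encodes the beta1 subunit known from skeletal muscle, was at 7.32, 7.97 and 7.50 at 3 months and at 7.95, 7.95 and 7.65 at 12 months. Its difference was 0.26 (limma SE 0.27, 95% interval -0.38 to 0.89, adjusted p 0.523), and the ages overlapped. On 3-month array 3 *Cacna1g* and *Cacnb2* had their highest and *Cacna1h* and *Cacnb3* their lowest 3-month value.

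*Cacna2d1* encodes alpha2delta1, the extracellular subunit to which the drug gabapentin binds. Its 3 probes did not give the same direction. The brightest, designed to NM_012919.2, was the probe used for the gene. Its spot was marked as an outlier on the 3-month arrays 1 and 2 and left out there, so that the 3-month level rested on array 3 alone, at 15.21. The 12-month arrays were at 14.51, 14.92 and 14.51. The difference was -0.56 (limma SE 0.39, 95% interval -1.58 to 0.45, adjusted p 0.36), where the lone 3-month array is assumed to vary like the rest. With the marked spots kept, a setting chosen after the data were seen, the 3-month arrays were at 15.40, 14.25 and 15.21 and overlapped the 12-month arrays, with a difference of -0.31 and an adjusted p of 0.57.

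The other two probes of *Cacna2d1* had a value on every array. The probe designed to NM_001110847.1 was at 12.14, 11.64 and 12.21 on the 3-month arrays and at 12.62, 12.73 and 12.86 on the 12-month arrays. All 12-month arrays were higher than all 3-month arrays, with a difference of 0.74 (limma SE 0.25, unadjusted p 0.0227, adjusted p 0.103). The probe designed to NM_001110848.1 was at 12.15, 11.64 and 12.10 at 3 months and at 12.48, 12.60 and 12.90 at 12 months. It likewise showed no overlap, with a difference of 0.70 (limma SE 0.26, unadjusted p 0.0319, adjusted p 0.122). The mean of these 2 probes differed by 0.72 with an adjusted p of 0.112. No probe of *Cacna2d1* was called, and the direction of the gene depends on the probe.

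**Figure D3:**
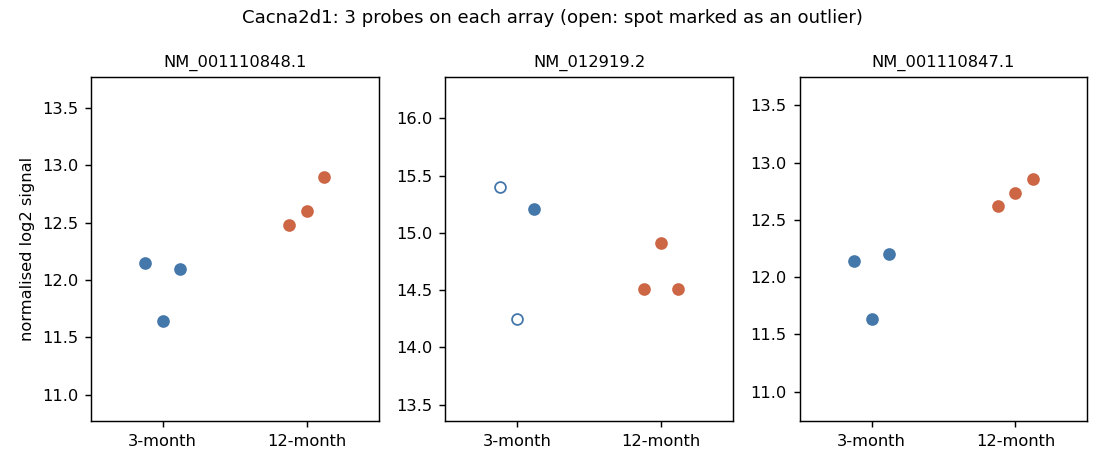
Normalised log2 signal of the 3 probes of *Cacna2d1* on the 3-month (blue) and 12-month (orange) arrays, 3 log2 units on each y axis, with open points for spots marked as outliers. The probes designed to NM_001110848.1 and NM_001110847.1 are higher on all 12-month arrays, with differences of 0.70 and 0.74, while the 12-month arrays of the brightest probe, in the middle, lie between its 3-month points.

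Of 16 further genes counted as voltage-gated calcium channel subunits, 14 had a probe and 8 were tested, and none was called at the adjusted threshold by limma or by the methods' plain test. *Cacna1s* and *Cacna2d4* had no matched probe. At an unadjusted p under 0.05 there were 4, *Cacna1d*, *Cacna1i*, *Cacng3* and *Cacng8*, of which all except *Cacna1i* also passed the fold of the study, 1 higher and 2 lower. Over all tested probes 32.4% had an unadjusted p under 0.05 and 11.9% were called lower at the threshold of the study. The median difference of the 8 was -0.22, and it was 0.14 for the 7 that were well above background on an array of each age.

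*Cacna1d* encodes the second L-type pore of beta cells, Cav1.3. Its probe was named from the gene list of the study, since its accession was not in the RefSeq table used here. It was at 8.70, 9.42 and 9.27 on the 3-month arrays and at 10.02, 10.09 and 10.40 on the 12-month arrays. As for *Cacna1c*, every 12-month array was above every 3-month array. The difference was 1.04 (limma SE 0.28, 95% interval 0.37 to 1.71, unadjusted p 0.00806, adjusted p 0.0658) or 2.06-fold. Under the 17 alternatives it ran from 0.71 to 1.19, with an adjusted p under 0.05 in 1 of them. Both L-type genes stand in the pathway tables that the study made on these samples, so that their array values are no independent evidence of a direction. The study also measured both genes by qPCR and reported that they were induced in the islets of the older rats. Those qPCR measurements are not among the data used here.

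*Cacna1i*, the remaining T-type pore, was at 11.66, 11.88 and 12.98 at 3 months and at 11.09, 11.35 and 11.12 at 12 months, a difference of -0.99 (limma SE 0.38, adjusted p 0.131). All 12-month arrays were lower than all 3-month arrays. *Cacng8* and *Cacng3* belong to the gamma family, whose members of this kind are known mainly as partners of AMPA-type glutamate receptors. *Cacng8* differed by -1.26 (limma SE 0.30, adjusted p 0.0503) without overlap, and only 1 of its 12-month signals was well above background. *Cacng3* differed by -1.46 (limma SE 0.52, adjusted p 0.114), with overlapping ages. *Cacng2*, *Cacng6* and *Cacng7* had differences from 0.14 to 0.43 and limma adjusted p-values from 0.633 to 0.809. *Cacng5* was well above background on no 12-month array, and its 3-month mean of 4.73 lay below the lowest such signals there, so that no fold is given. *Cacna1f*, *Cacna2d2*, *Cacna2d3* and *Cacng4* were well above background on no array, *Cacng1* on 1 and *Cacnb4* on 2 of the 6.

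**Figure D4:**
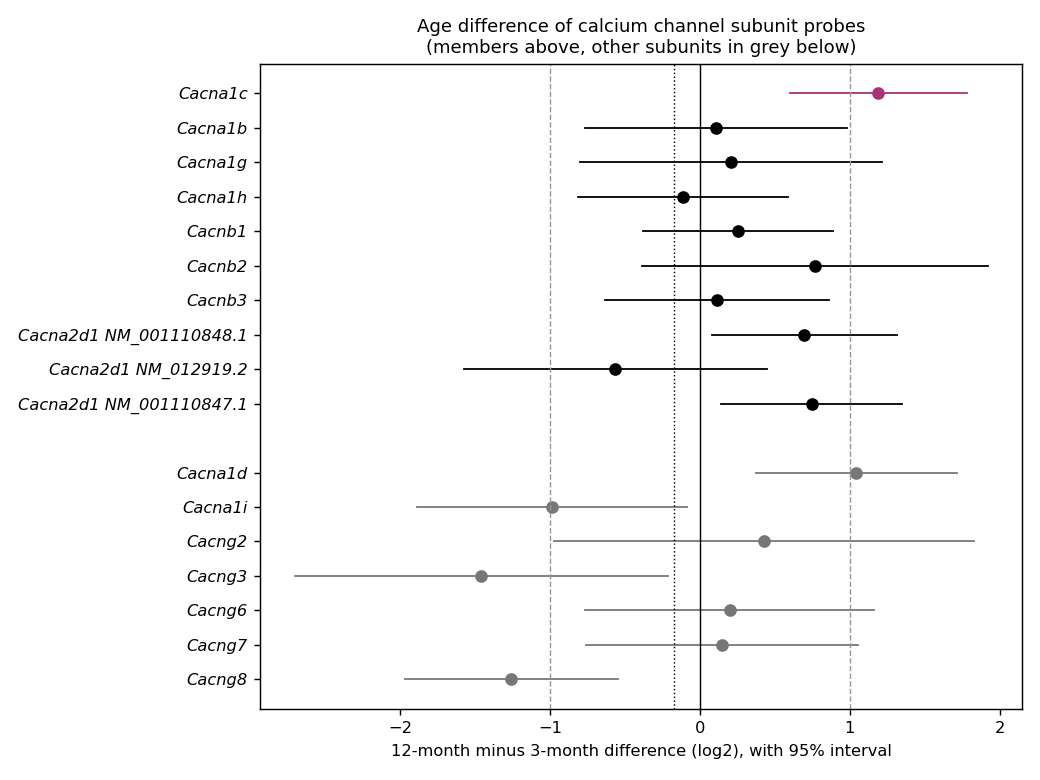
Difference between the ages (x axis, 12-month minus 3-month, log2) with its 95% limma interval for the 10 tested probes of the members (black, purple for an adjusted p under 0.05) and the 7 other tested subunit genes measured at both ages (grey). The dotted line is the median of all tested probes at -0.17 and the dashed lines mark a 2-fold difference. *Cacna1c* at 1.19 and *Cacna1d* at 1.04 lie farthest to the right, and *Cacng3* at -1.46 and *Cacng8* at -1.26 farthest to the left.

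The genes that act around the channels were counted in 4 lists: proteins that bind or regulate them, the machinery of calcium-triggered exocytosis, pumps and exchangers that clear calcium, and calcium-dependent enzymes and factors. Together with the further subunits these lists held 83 genes with a probe, of which 69 were tested, 10 were called higher and 2 lower at 12 months. Over all probes 5.32% were called higher and 3.05% lower. The median difference over the 69 was 0.14. The 12 calls became 3 without 12-month replicate 1, 3 without 12-month replicate 3, 4, 7 and 6 without 3-month replicate 1, 2 and 3 in turn, and 13 without 12-month replicate 2. Each called gene kept its direction under every alternative in which it was fitted, and the number of alternatives with a call ran from 6 of 17 for *Creb1* to 15 of 17 for *Ppp3cb*. Several of the called genes, *Calm2*, *Camk2d*, *Rims2*, *Nsf*, *Ppp3r1*, *Ppp3cb* and *Creb1*, stand in pathway tables of the study made on these samples, and their counts are not independent evidence.

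Among the proteins that bind or regulate the channels, 19 of 20 genes with a probe were tested, 6 rose and none fell at the adjusted threshold in limma. The median of the 19 was 0.68. *Gem* and *Rem2* encode small GTPases of the RGK family, which bind beta subunits and inhibit channel currents. *Gem* was at 8.01, 7.95 and 6.58 on the 3-month arrays and at 10.27, 11.02 and 9.88 on the 12-month arrays, with no overlap and a rise of 2.87 (limma SE 0.49, adjusted p 0.022). *Rem2* rose by 1.52, from 9.47 ± 0.27 to 10.99 ± 0.38 (SD, n = 3; limma SE 0.29, adjusted p 0.0302). The related *Rem1* and *Rrad* differed by -0.51 and -0.57, with adjusted p-values of 0.307 and 0.386, so that the RGK genes did not move as one.

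*Camk2d*, a subunit of a kinase that acts on L-type channels, rose by 3.63 (limma SE 0.31, adjusted p 0.00345), from 3.49, 3.97 and 4.22 to 7.24, 7.42 and 7.92. *Rims2*, a scaffold that ties channels to release sites, rose by 2.66 (limma SE 0.33, adjusted p 0.01), from 3.05, 3.00 and 3.41 to 5.37, 5.66 and 6.41. The size of both rises rests on 3-month signals near background: with normexp background correction they were 1.68 for *Camk2d* and 0.77 for *Rims2* (limma adjusted p 0.00655 and 0.0407), and at 3 months *Camk2d* was well above background on 2 arrays and *Rims2* on 1. The related *Rims1* differed by -1.85 with an unadjusted p of 0.0105 and an adjusted p of 0.0731 (limma). *Calm2*, also called and named here after its values were seen, encodes the calcium sensor calmodulin and rose by 1.14 (limma, adjusted p 0.0342).

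Of the exocytosis genes 16 of 20 with a probe were tested, with a median of -0.17, or -0.011 without the 2 that were well above background on no 12-month array. At an unadjusted limma p under 0.05 there were 9 of the 16, beside 32.4% of all tested probes. Among them *Stx1a*, *Vamp2*, *Syt4* and *Rab3a* differed by -0.71 to -0.81 (limma adjusted p 0.0806 to 0.0911). *Vamp3* and *Unc13b* were higher, by 0.61 and 2.77 (limma adjusted p 0.107 and 0.0683). *Nsf*, the ATPase that takes apart used SNARE complexes, rose by 2.62 (limma SE 0.45, adjusted p 0.0229). *Cplx1*, a complexin that holds SNARE complexes ready for release, fell from 10.19, 10.11 and 9.96 to 8.26, 8.86 and 7.84, a difference of -1.76 (limma SE 0.31, adjusted p 0.0244). *Syt7*, a calcium sensor of exocytosis, was well above background on no 12-month array, and only a bound of at least 1.64-fold lower can be given (limma adjusted p 0.0784). It sets the 3-month mean against the lowest signals well above background on the 12-month arrays.

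All 14 genes for clearing calcium were tested and none was called by limma or the methods' plain test, although 6 had an unadjusted limma p under 0.05, beside 32.4% of all tested probes, and the median was 0.18. At the threshold of the study 1 was higher and 1 was lower, the latter the exchanger gene *Slc8a2*, at -1.45 (limma adjusted p 0.089), which was well above background on 1 of the 12-month arrays. *Atp2b1*, a calcium pump of the plasma membrane, differed by 0.84 (limma adjusted p 0.0968). Both genes are named after their values were seen.

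Of the calcium-dependent enzymes and factors 12 of 15 with a probe were tested, 3 rose and 1 fell, with a median of 0.28. *Ppp3r1* and *Ppp3cb*, a regulatory and a catalytic subunit of the phosphatase calcineurin, rose by 3.87 (limma SE 0.59, adjusted p 0.0168) and by 2.37 (limma SE 0.29, adjusted p 0.01). The 3-month values of *Ppp3r1* were 7.69, 7.71 and 5.63 and its 12-month values 10.91, 10.56 and 11.18, without overlap. *Creb1*, a transcription factor activated by calcium and cyclic AMP, rose by 1.21 (limma SE 0.26, adjusted p 0.0398). *Nfatc4*, a transcription factor that calcineurin activates, fell by 1.62 (limma SE 0.35, adjusted p 0.0394).

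**Figure D5:**
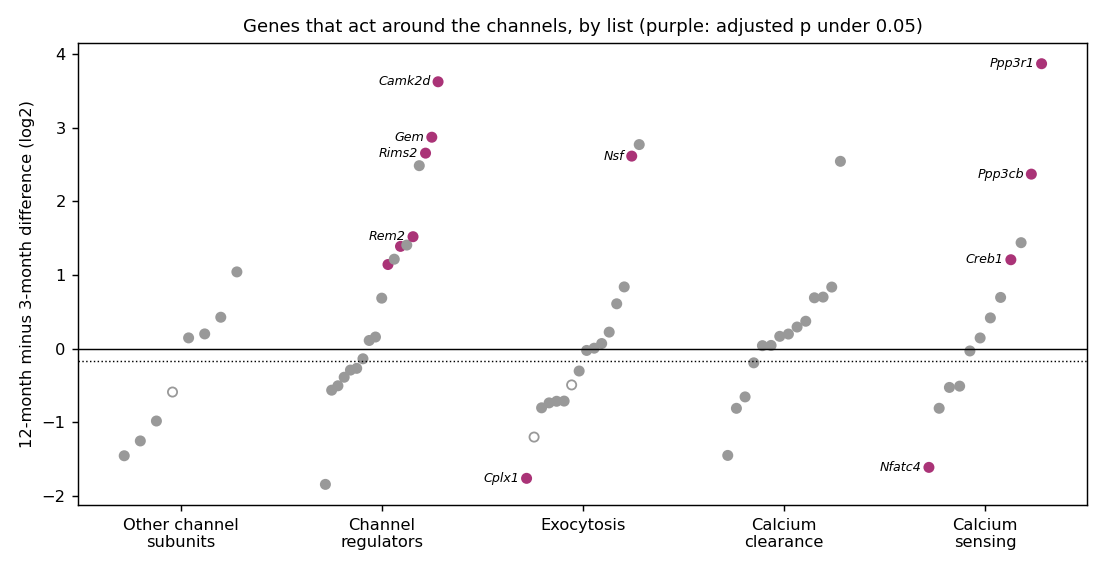
Difference between the ages (y axis, 12-month minus 3-month, log2) of the tested genes of the 5 lists, each point a gene in order of its value, in purple where the adjusted p is under 0.05, with at most 4 of these named in a list and open where the probe was well above background on no array of an age. The dotted line is the median of all tested probes at -0.17. *Camk2d* at 3.63 and *Ppp3r1* at 3.87 are the highest named points, *Cplx1* at -1.76 the lowest, and no clearance gene or further subunit is purple.

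Markers of cell types moved in both directions beside *Cacna1c*. Of the smooth muscle and pericyte markers, 8 of 10 were tested, 3 with a higher and 5 with a lower 12-month level, and the summed signal of the 7 with a value on all arrays ran from 19457 to 39386 units at 3 months and from 12024 to 30012 at 12 months. *Acta2* and *Myh11*, the defining genes of smooth muscle, had no matched probe. *Tagln*, the brightest of the list, differed by -0.78 (limma adjusted p 0.338), *Cnn1* fell by 1.84 (adjusted p 0.0375), *Des* differed by 0.72 (adjusted p 0.159, with no value on 3-month array 3), and *Pdgfrb*, a pericyte gene, rose by 1.68 (adjusted p 0.0453). In the same list *Cspg4* differed by -0.92 without overlap and *Rgs5* by 1.46 with overlap (limma adjusted p 0.0561 and 0.0961). Of the endocrine markers 8 of 10 tested were higher and 1 was called. This was *Slc2a2*, the glucose transporter of rodent beta cells, which rose by 4.11 (limma SE 0.35, adjusted p 0.00369). Over all tested probes 58% were lower, 5.32% were called higher and 3.05% were called lower. *Slc2a2* also stands in pathway tables of the study made on these samples, so that its array value is not independent evidence. The endocrine list had a summed signal of 1901700 to 2167900 units at 3 months and 2336800 to 2464600 at 12 months. *Ins1* and *Ins2* differed by 0.10 and -0.12 (limma adjusted p 0.786 and 0.737), and *Iapp* by 0.95 (adjusted p 0.0532). The insulin probes are among the brightest, where quantile normalisation gives the top ranks the same values on every array. *Ins1* read 18.725 on 3-month array 3 and on 12-month arrays 1 and 2. The scaling therefore limits how far the insulin probes can differ, and the summed signal is made up mostly of such bright probes. The part of either cell group in the *Cacna1c* difference was not tested.

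Of the nerve and Schwann cell markers, whose cells also carry N-type, P/Q-type and gamma subunits, 10 of 11 tested were lower at 12 months and 2 of them were called, where 58% of all tested probes were lower and 3.05% were called lower. Their median was -1.23, and *Prph*, a filament protein of peripheral neurons, fell by 3.04 (limma adjusted p 0.0299). *Th* and *Dbh*, enzymes of noradrenaline synthesis, differed by -1.23 and -2.15 (adjusted p 0.132 and 0.0672), and *Uchl1*, the brightest of the list, by -0.02 (adjusted p 0.949). The summed signal of the 10 with a value on all arrays was 51910 to 65379 units at 3 months and 46439 to 53521 at 12 months. *Uchl1*, with log2 means of 15.45 and 15.43, made up most of this sum, which therefore says little about the other genes. Whether nerve cells had a part in the lower values of *Cacng3*, *Cacng8* or *Cplx1* was not tested. Endothelial, acinar, duct and immune markers had medians of -0.75, 0.10, 0.055 and -0.0074. No gene was called in these lists by limma or the methods' plain test. At an unadjusted limma p under 0.05 there were 4 of 7, 0 of 8, 1 of 5 and 0 of 7 tested genes. Over all tested probes the share was 32.4%. Of the 7 endothelial genes 5 were lower. The acinar genes did not move alike over the arrays. *Ctrb1* was at 16.61, 17.07 and 14.02 on the 3-month arrays and at 17.64, 14.39 and 17.91 on the 12-month arrays. *Cel* varied in a similar way, while *Pnlip* had means of 18.40 and 18.46. The part of acinar cells in the values above was not tested.

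The 3 genes whose pattern over the 6 arrays was most like that of *Cacna1c*, among 9090 genes well above background on all 6, were *Tgfb2*, *Luc7l3* and *Pdcd10*. Their Pearson correlations with it were 0.997, 0.996 and 0.995, over 6 arrays that fall into 2 ages, and 307 genes had a correlation above 0.95. *Tgfb2*, which encodes a growth factor, differed by 0.99 between the ages, *Luc7l3*, a splicing factor gene, by 0.89, and *Pdcd10*, a gene of vascular integrity, by 1.26, with limma adjusted p-values of 0.0561, 0.0651 and 0.0355.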

How the data were processed

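RNA of 3 islet samples of each age was hybridised to 1-colour Arraystar/Agilent arrays of 24684 probes. Per the file headers, the deposited scanner output gives background-subtracted spot intensity from Agilent Feature Extraction 11.0.1.1, not normalised between arrays. A deposited table of log2 values, which the authors had quantile normalised, was used as an alternative. Arrays have no read depth, so that the number of arrays limits the precision.

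Spots not marked as outliers were averaged per probe on the log2 scale, and arrays were quantile normalised. Probes well above background on at least 3 of 6 arrays were kept (17944), and 17941 could be tested with limma 3.58.1 in R 4.3.3 (no block, two-sided, Benjamini-Hochberg over all tested probes). The step was tested on simulated data. Of 15321 mRNA probes 14274 were named from a RefSeq table of GRCr8; the array design uses build rn4, so no probe coordinates are given. All members and further subunits are named, by rule, with up to 4 called genes of each other list and the first 3 and the brightest of marker lists. Any other gene of these lists was named after its values were seen. Some genes of the lists are counted but not reported here by name. Members and lists were chosen with earlier results of these data known. The alternatives were a 75th percentile alignment, normexp with an offset of 50, the authors' table, other filters, robust variances, a replicate block, arrays left out, plain unpaired tests (the study names a paired one, but the labels number only 2 of the 12-month arrays), a mean over probes and, chosen after seeing the data, outlier spots kept.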

Additional observations from a re-analysis of the deposited data

Results flagged for a closer look

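The brightest *Cacna2d1* probe, designed to NM_012919.2, had its spot marked as an outlier on 2 of the 3-month arrays, and these spots entered no comparison as first made. Kept, they read 15.402 on 3-month array 1 and 14.249 on 3-month array 2, both above the lowest signals well above background on those arrays, 3.17 and 3.01. They stand on either side of all 12-month values of the probe, which ran from 14.51 to 14.92.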

How the results depend on the processing

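The number of members called at the adjusted threshold, 1 as reported, was 2 with no filter on dim probes (*Cacna1a* added, lower) and 0 with the replicate block over the arrays numbered 1 and 2, in the 4 arrays with a common name ending, under the methods' t-test in an unpaired form and, ranging from 0 to 0, when each array was left out. At the threshold of the study the number was 0 with normexp, 2 with no filter (*Cacna1a* added) and with the replicate block (*Cacnb2* added), and 1 to 2 with arrays left out. The 12 called pathway genes became 0 under the replicate block and in those 4 arrays, 5 under the methods' t-test, and 3 to 13 with arrays left out, lowest without 12-month replicate 1 or 3. None of the differences that turned sign was called. *Cacnb3* was at -0.076 with the 75th percentile alignment, -0.00068 with normexp and -0.13 with the block. *Cacna1b* was at -0.0094 with normexp and -0.12 with the 4 arrays, *Cacna1g* at -0.16 and *Cacna1h* at 0.0083 with the same 4 arrays, and *Cacna2d1* at 0.72 as the mean over its complete probes. With arrays left out the lowest and highest values were -0.18 and 0.28 for *Cacnb3*, -0.18 and 0.36 for *Cacna1b*, -0.15 and 0.66 for *Cacna1g*, and -0.32 and 0.045 for *Cacna1h*. The cause of these turns was not tested. The block could pair numbers 1 and 2 alone, since the labels give the remaining 12-month array no number. Same-numbered arrays did not deviate together, with correlations of -0.01 and -0.31.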
